A study of Mus musculus with 15 samples.

Results

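The respiratory chain of the inner mitochondrial membrane passes electrons from NADH (complex I) and succinate (complex II) through complex III to oxygen at complex IV, and the proton gradient that this builds drives ATP synthase. Most of its subunits are encoded in the nucleus, made in the cytosol and imported, while a small set, including the redox-active core of complex IV, is encoded by mitochondrial DNA. The nuclear genes examined here are those whose symbols begin with Ndufa, Ndufb, Ndufc, Ndufs, Ndufv, Uqcr, Cox4, Cox5, Cox6, Cox7, Cox8 or Atp5, together with Sdha, Sdhb, Sdhc and Sdhd and without symbols marked as pseudogenes (-ps). The rule took 99 of the 40402 genes in the count table. Of these, 91 reached 1 CPM (a count scaled to library size) in at least 1 library, as did 17647 genes in all, and every statement below on fold changes covers these 91 genes.

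Bulk RNA was sequenced from 4T1 cells, a wild-type mouse line from a mammary carcinoma, that were left untreated or were treated a day after seeding with an extract of blackberry (BLA) or of blueberry (BLU) or with gold nanoparticles made from either fruit (BLA-A and BLU-A). Each of these 5 conditions was deposited as 3 columns that differed by less than the sampling noise, so the columns were averaged and counted as 1 library, and a fold change between 2 conditions has no replicate check. The labels give each column a batch date of its own, so date and treatment cannot be told apart. Library totals ran from 25613778 to 26956442 counts. The intervals given in brackets below are 95% counting intervals and cover counting error only. Fold changes were taken on the scale of log2(CPM + 0.5), which understates the change of genes with few counts.

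The libraries carried the markers of mammary carcinoma epithelium, with Krt18 at 452 to 690 CPM and Epcam at 39.8 to 69 CPM, and the leukocyte marker Ptprc was at most 1.5 CPM with Lyz2 at 0 in all 5. The 5 leukocyte and macrophage markers summed to 8.62 to 11.8 CPM, most of it Cd68 (6.91 to 8.83 CPM). The 3 endothelial markers summed to 1.77 to 4.07 CPM. Of the hormone receptor genes checked, Esr1 was at 21.1 to 35.3 CPM and Pgr at 0.216 to 1.32 CPM. The 4 fibroblast markers summed to 87.3 to 104 CPM, nearly all of it Pdgfra, with Col1a1 at 1.8 CPM or less. The 6 epithelial markers summed to 939 CPM in BLA, 1270 CPM in untreated cells and 1680 CPM in BLA-A, so the sum, most of it keratins, was lowest in BLA and highest in BLA-A, while Epcam alone was lowest in BLA-A and Krt14 was lowest in untreated cells (0.376 CPM). The part of these markers in the results below was not tested. The BLA-A library stood apart: the mitochondrial ribosomal RNA genes mt-Rnr1 and mt-Rnr2 had 81 and 250 counts there, against 9292 to 12026 and 12803 to 15274 counts in the other 4 libraries. Its TMM factor was 0.904, against 1.01 to 1.035 in the others. In bulk RNA, fewer cells of a type and less RNA per cell cannot be told apart.

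In BLA-treated cells, the respiratory chain genes were mostly lower than in untreated cells. The median log2 fold change of the 91 genes was -0.57, with 82 genes below 0 and 9 above it, while the median of all 17647 genes was -0.01. Of the respiratory chain genes, 14 were below -1 (15.4%) and 1 was above 1 (1.1%), where 8.55% of all genes were below -1 and 7.93% above 1. At a limit of 0.5, 54 genes (59.3%) were below and 3 (3.3%) above, against 21.5% and 21.2% of all genes.

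BLU-treated cells had the same genes at a median of -0.37. Here 25 genes (27.5%) were below -0.5 and 2 (2.2%) above 0.5, against 14.6% and 18.3% of all genes. No gene was below -1 (4.64% of all genes) and 1 was above 1 (5.66% of all genes). BLU-A-treated cells lay close to untreated cells, with a median of -0.09. In BLU-A, 3 genes were below -0.5 (3.3%, against 12% of all genes) and 3 above 0.5 (3.3%, against 12.9%), none was below -1 (4.51% of all genes) and 2 were above 1 (3.35% of all genes). Genes at a mean of 10 CPM or more, 9771 in all, passed these limits less often. In BLU, 631 of them were below -0.5, 1170 above 0.5, 40 below -1 and 194 above 1. In BLU-A these counts were 149, 597, 10 and 74. The 4 treatments were set against the same untreated library.

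The BLA-A library had the widest spread. Its median was 0.22, with the middle 50% of genes between -0.44 and 0.76, 52 genes above 0 and 39 below. There were 16 genes above 1 (17.6%, against 8.54% of all genes) and 9 below -1 (9.89%, against 12.4%). Cox4i2, Ndufaf8 and Ndufs6b, among the 16, passed the filter only through libraries where they were high. At 0.5, 32 genes (35.2%) were above and 21 (23.1%) below, against 23.4% and 26.1% of all genes. With scaling by total counts alone, the median of all genes was -0.18 in BLA-A (from -0.01) and that of the respiratory chain genes was then 0.03.

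By rank over the 5 libraries, BLA was the lowest for 51 of the 91 genes (56%), against 23.5% of all genes. BLA-A was the highest for 51 genes (56%, against 29.3% of all genes) and the lowest for 20 (22%, against 32.7%). Summed over all 99 genes, the chain took 0.489% of counts in untreated cells (exact binomial 95% interval 0.486% to 0.492%), 0.323% with BLA, 0.382% with BLU, 0.459% with BLA-A and 0.447% with BLU-A.

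**Figure D1:**
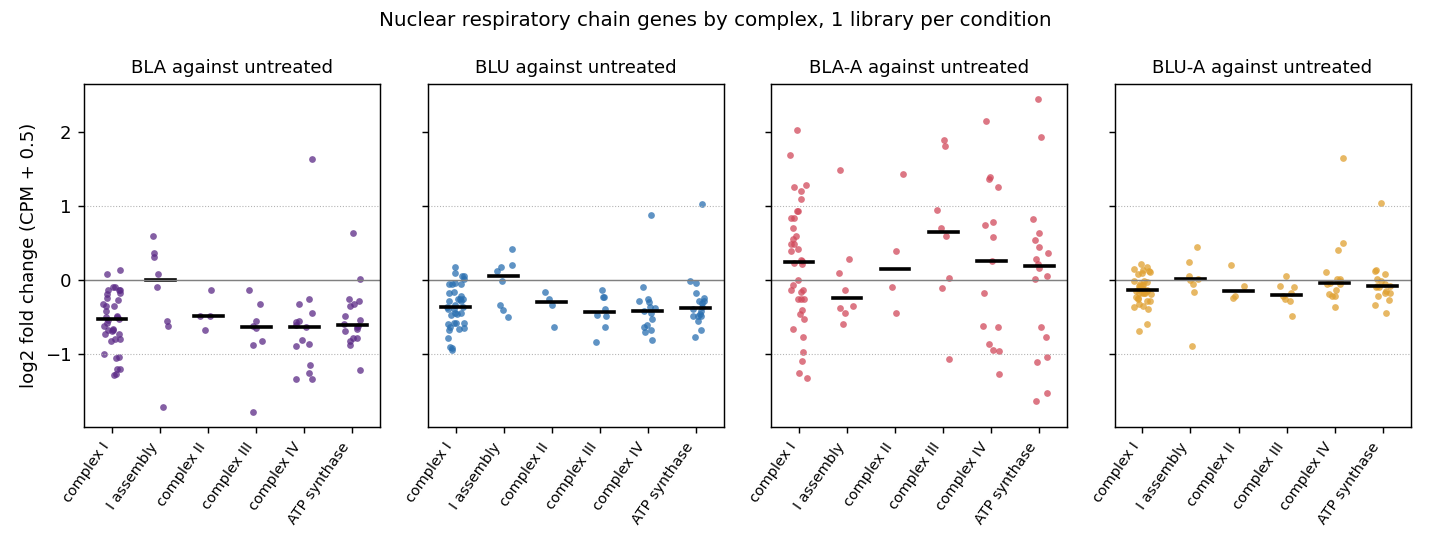
The log2 fold change against untreated cells of each of the 91 nuclear respiratory chain genes (points) by complex, 1 panel per treatment, with the median of each complex as a bar and dotted lines at 1 and -1. In BLA and BLU most points sit below 0 in every complex, with the assembly factors around 0 (medians of -0.63 to 0 and -0.43 to 0.05), in BLU-A they gather around 0, and in BLA-A they spread from -1.63 to 2.44.

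Promoter sequence is shown for 4 genes: the c-ring genes of ATP synthase, Atp5mc1, Atp5mc2 and Atp5mc3, which encode the same mature peptide but were at different levels, and Uqcr11, a small subunit of complex III that was lowest of all in BLA and far higher in BLA-A. Each sequence runs 5′ to 3′ in the gene's direction over 250 bases before and 50 after the start site, from RefSeq on GRCm38.p6, all on the minus strand of the genome: chr11:96075582-96075881, chr15:102670998-102671297, chr2:73911277-73911576 and chr10:80406772-80407071, in the order printed. Capitals mark exact matches, on either strand, to GCGCATGCG (the core of the site of NRF1, a known activator of respiratory genes), CCGGAAG (ETS factors such as GABP), GGGCGG (Sp1) and CCAAT (the CCAAT box). The NRF1 letters are nearly their own reverse complement, so the capitals in Atp5mc2 are 1 site read on both strands, and the joined capitals in Atp5mc1 are 2 overlapping CCAAT matches on opposite strands.
Atp5mc1: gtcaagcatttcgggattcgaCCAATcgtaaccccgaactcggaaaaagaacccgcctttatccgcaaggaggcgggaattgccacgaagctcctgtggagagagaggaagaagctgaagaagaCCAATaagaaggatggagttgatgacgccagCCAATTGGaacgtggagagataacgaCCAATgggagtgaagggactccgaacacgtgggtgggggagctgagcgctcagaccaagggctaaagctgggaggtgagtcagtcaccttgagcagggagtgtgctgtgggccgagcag
Atp5mc2: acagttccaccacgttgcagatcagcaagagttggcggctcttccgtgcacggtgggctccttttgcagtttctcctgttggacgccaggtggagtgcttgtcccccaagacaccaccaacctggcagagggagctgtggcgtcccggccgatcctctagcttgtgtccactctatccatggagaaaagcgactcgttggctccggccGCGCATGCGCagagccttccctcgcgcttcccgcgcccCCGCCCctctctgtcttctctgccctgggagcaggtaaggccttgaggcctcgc
Atp5mc3: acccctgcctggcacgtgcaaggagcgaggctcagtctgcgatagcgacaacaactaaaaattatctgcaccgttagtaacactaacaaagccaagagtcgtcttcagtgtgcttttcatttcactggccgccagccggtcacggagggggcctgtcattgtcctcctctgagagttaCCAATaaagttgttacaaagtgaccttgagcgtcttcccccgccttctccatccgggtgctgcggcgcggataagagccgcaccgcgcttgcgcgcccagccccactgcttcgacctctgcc
Uqcr11: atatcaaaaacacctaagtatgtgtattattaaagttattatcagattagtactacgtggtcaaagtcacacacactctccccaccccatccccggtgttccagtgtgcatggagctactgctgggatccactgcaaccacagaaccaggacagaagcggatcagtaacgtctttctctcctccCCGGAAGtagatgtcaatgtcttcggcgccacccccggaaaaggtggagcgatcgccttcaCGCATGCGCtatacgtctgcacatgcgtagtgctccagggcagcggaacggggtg

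A promoter was matched for 77 of the 99 genes. The NRF1 letters occurred in 10 of the 77 (13%), against 1.81% of 27025 promoters of the same length. The ETS letters occurred in 17 (22.1%, against 9.12%) and AAGATGGCG, the site of YY1, in 7 (9.09%, against 1.49%). GGGCGG was found in 44.2% against 35.9% and CCAAT in 42.9% against 37.9%. The 10 genes with the NRF1 letters, which include Ndufa8, Ndufa11, Ndufaf4, Uqcrc1, Uqcr11, Cox6a1 and Atp5mc2, had a median log2 fold change of -0.94 in BLA and 0.55 in BLA-A, and the other matched genes that passed the filter had -0.54 and 0.09. For YY1 the order was the opposite, with -0.19 in BLA and 0.02 in BLA-A for the 7 genes that hold its letters and -0.57 and 0.23 for the rest. With and without the other motifs, the BLA medians were -0.62 and -0.54 for ETS, -0.51 and -0.56 for Sp1 and -0.56 and -0.56 for CCAAT. In BLA-A they were 0.21 and 0.23, 0.21 and 0.27, and 0.09 and 0.25. A match is a description of the letters and not of a bound site. The gene for the factor, Nrf1, differed from untreated cells by 0.49 with BLA, 0.45 with BLU, 0.1 with BLA-A and 0.35 with BLU-A on the same log2 scale.

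Complex I, the NADH dehydrogenase, was covered by 41 genes, of which 38 passed the filter. Over these 38 the median log2 fold change was -0.53 with BLA, -0.36 with BLU, 0.24 with BLA-A and -0.14 with BLU-A. The 7 core subunits, which carry the flavin and iron-sulfur clusters, had medians of -0.5, -0.26, -0.07 and -0.18. Ndufv1, which takes the electrons from NADH, was at 31.8 CPM in untreated cells, 19.7 with BLA, 21.2 with BLU, 30.2 with BLA-A and 28 with BLU-A. Ndufs1, the largest core subunit, was at 113, 95.5, 110, 66.2 and 111 CPM in the same order, so here BLA-A was the low library. Ndufs8, an iron-sulfur core subunit, was at 27.1, 11.5, 14.1, 22.5 and 21.7 CPM, and alone among core genes differed by more than 1, at -1.2 in BLA (interval -1.39 to -1). No core gene passed 1 in BLA-A, where they ran from -0.77 (Ndufs1) to 0.55 (Ndufs3).

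The 30 accessory subunits of complex I surround the core and are needed for its assembly and stability. They were most of the complex's 38 genes past the filter and held most of the large differences. In BLA, 6 of them were below -1: Ndufa11 (-1.28), Ndufa2 (-1.27), Ndufb1 (-1.2), Ndufa3 (-1.05), Ndufb2 (-1.04) and Ndufa8 (-1). Ndufa11, which sits in the membrane arm, was at 16.8 CPM in untreated cells, 6.62 with BLA, 8.72 with BLU, 32.5 with BLA-A and 14.9 with BLU-A. It was thus lower with both extracts and highest with BLA-A. Ndufa2 had 19.7, 7.87, 12.9, 26 and 12.9 CPM, with the BLU-A level at that of BLU. Ndufs6, a zinc-binding subunit, was the lowest gene in BLU at -0.95 (-1.32 to -0.58), and its levels were 6.65, 4.41, 3.2, 22.6 and 3.93 CPM.

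In BLA-A, the accessory subunits parted in both directions. Ndufa1, a small subunit of the membrane arm, was at 4.92 CPM in untreated cells, 4.41 with BLA, 4.36 with BLU, 21.6 with BLA-A and 4.08 with BLU-A, so that its log2 fold change of 2.03 (1.75 to 2.3) stood in the BLA-A library alone. Ndufs6 (1.69), Ndufb11 (1.26), Ndufs5 (1.2) and Ndufa13 (1.1) were also above 1 there. Ndufs5 had 57 counts in untreated cells and has 1 near-identical copy elsewhere in the genome. On the other side, Ndufs4, whose loss in mice causes a form of Leigh-like disease, was at 97.7, 107, 110, 45.4 and 110 CPM, with -1.1 (-1.2 to -0.99) in BLA-A. Ndufa12 at -1.32 and Ndufc1 at -1.25 were the other accessory genes below -1. The near copy of Ndufs6, Ndufs6b, had 5, 3, 1, 27 and 4 counts, and reads cannot be assigned with certainty between near-identical genes. Ndufs6b passed the filter only through the BLA-A library (1.17 CPM), where it was high.

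The 8 assembly factors of complex I whose symbols begin with Ndufaf, which help to build the complex and are not part of it, had medians of 0 with BLA, 0.05 with BLU, -0.25 with BLA-A and 0.01 with BLU-A. Ndufaf4 was the exception in BLA. It was at 9.62 CPM in untreated cells, 2.57 with BLA, 7.2 with BLU, 6.18 with BLA-A and 9.64 with BLU-A, a log2 fold change of -1.72 (-2.1 to -1.34) in BLA. Ndufaf7, a methyltransferase that modifies a core subunit, was higher in BLA at 0.59 (0.39 to 0.79), with 12.6, 19.1, 14.5, 9.55 and 17.2 CPM. Ndufaf8 was above 1 in BLA-A (1.48) on 19 counts in untreated cells and 67 in BLA-A. At 0.714 CPM in untreated cells and 0.756 CPM with BLU-A, Ndufaf8 passed the filter only through libraries where it was higher. Ndufaf3 was the lowest gene in BLU-A at -0.89 (-1.38 to -0.4), on 103 counts in untreated cells and 49 in BLU-A.

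Complex II, succinate dehydrogenase, is encoded wholly in the nucleus. The 4 genes had medians of -0.48, -0.3, 0.14 and -0.15 for BLA, BLU, BLA-A and then BLU-A. Sdha, the flavoprotein, was at 136 CPM in untreated cells, 97.2 with BLA, 114 with BLU, 100 with BLA-A and 128 with BLU-A. Sdhb, the iron-sulfur subunit, was at 56.6, 40.5, 36.4, 52.8 and 47.9 CPM. Both catalytic subunits were highest in untreated cells. The membrane anchor Sdhc was at 30.4, 27.7, 27, 82.6 and 34.9 CPM, or 1.43 (1.31 to 1.55) in BLA-A, and the other anchor, Sdhd, was at 52.5, 32.5, 41.3, 68.9 and 45.2 CPM, or 0.39 in BLA-A. The anchors were thus highest in BLA-A, where Sdha was at -0.44 and Sdhb at -0.1.

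Complex III, the cytochrome bc1 complex, had 8 genes, with medians of -0.63, -0.43, 0.64 and -0.2. Uqcrfs1, the Rieske iron-sulfur protein, was at 41.4 CPM in untreated cells, 28 with BLA, 37.6 with BLU, 42.4 with BLA-A and 34.7 with BLU-A. Uqcr11, whose promoter is printed above and which lies at 80236542 to 80242676 on chromosome 10 (GRCm39, minus strand), was at 8.91, 2.24, 4.76, 34.4 and 8.28 CPM. Its log2 fold change was -1.78 (-2.18 to -1.37) in BLA, the lowest of the 91 genes, and 1.89 (1.68 to 2.1) in BLA-A. Between BLA and BLA-A it differed by 3.67 (3.3 to 4.05), the largest such difference of the 91. Uqcrh, the hinge protein that touches cytochrome c1, was at 28.9, 18.3, 18.6, 103 and 23.5 CPM, or 1.81 in BLA-A. Uqcrq, a small subunit next to cytochrome b, went the other way in BLA-A, at 111, 62.6, 79.9, 53 and 95.6 CPM, or -1.06. Small subunits of the same complex thus lay on opposite sides of untreated cells in BLA-A.

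**Figure D2:**
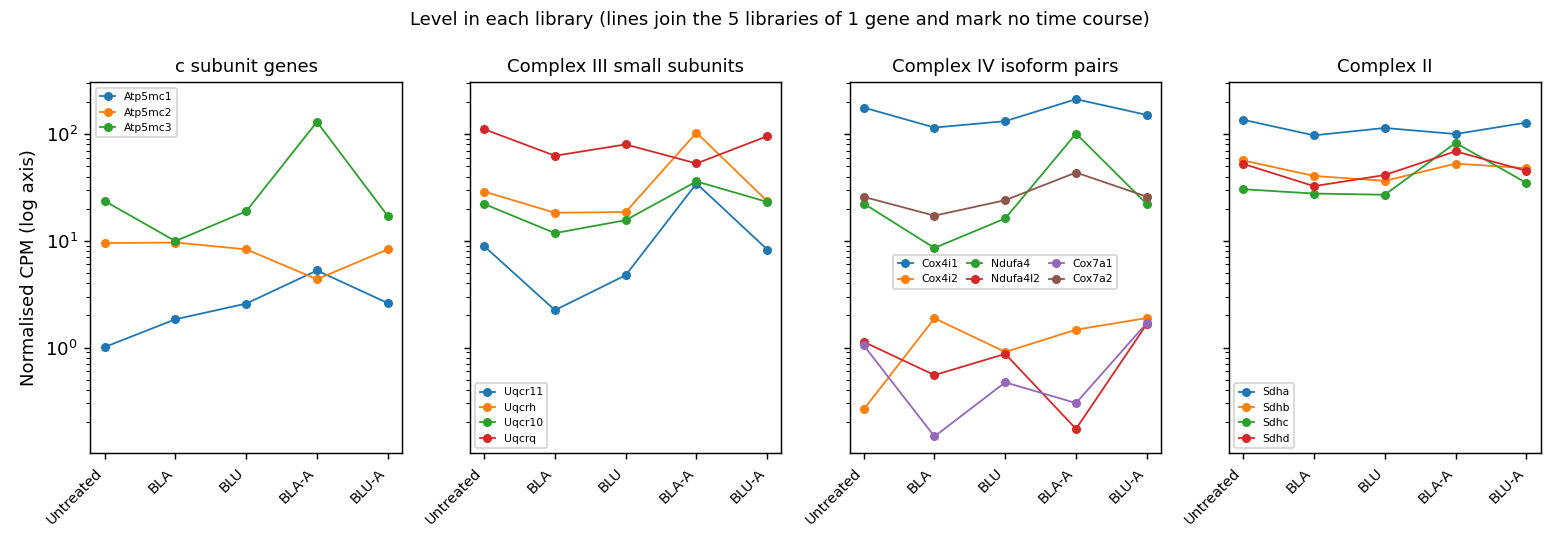
Normalised CPM on a log axis in each of the 5 libraries for the c-ring genes, small subunits of complex III, isoform pairs of complex IV and the complex II genes; lines join the libraries of 1 gene and mark no time course. Atp5mc3, Uqcr11, Uqcrh, Ndufa4 and Sdhc peak in the BLA-A library (130, 34.4, 103, 101 and 82.6 CPM), whereas Atp5mc2 and Uqcrq are lowest there (4.36 and 53 CPM).

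Complex IV, cytochrome c oxidase, had 20 genes, of which 15 passed the filter, with medians of -0.63, -0.42, 0.26 and -0.04. The 11 subunits made in most tissues had -0.81, -0.44, 0.58 and -0.06. Per kilobase of exon, Cox8a (122 CPM per kb), Cox6a1 (88.6) and Cox4i1 (56.2) were among the 5 highest of all the chain's genes in untreated cells, with Atp5f1b (120) and Atp5f1a (65) of ATP synthase. The exon length joins all annotated transcripts of a gene and can far exceed 1 of them, as for Cox6c (9416 against 503 nucleotides). This ranking therefore depends on the annotation. Cox6a1 was at 63.1 CPM in untreated cells, 28.2 with BLA, 38.5 with BLU, 150 with BLA-A and 63.6 with BLU-A. Cox4i1, the largest nuclear subunit, was at 177, 115, 132, 212 and 151 CPM, and Cox8a was at 109, 58.8, 62.1, 188 and 84.4 CPM. All 3 were lowest in BLA and highest in BLA-A.

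Cox5a, which faces the matrix, was at 41.3 CPM in untreated cells, 16.2 with BLA, 28.5 with BLU, 62 with BLA-A and 40.2 with BLU-A, with -1.33 (-1.49 to -1.17) in BLA. Ndufa4, named as a complex I subunit but found in complex IV, was at 22.3, 8.57, 16.2, 101 and 22.1 CPM, so it was -1.33 (-1.55 to -1.11) in BLA and 2.15 (2.02 to 2.28) in BLA-A. Cox5b was above 1 in BLA-A at 1.39, at 70 CPM against 26.5 CPM in untreated cells, and has 2 near-identical copies elsewhere in the genome. Not every subunit followed. Cox6b1 was at 97.3, 65.9, 78.7, 62.4 and 89.1 CPM and Cox7b at 77.3, 44, 59.2, 50.1 and 74.4 CPM, both below untreated cells in BLA-A, at -0.64 and -0.62.

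The isoforms of complex IV that are known from particular tissues were near the floor, which at 3 counts was 0.109 to 0.13 CPM. Cox4i2, the isoform of lung and of cells short of oxygen, had 7 counts in untreated cells, 51 with BLA, 25 with BLU, 34 with BLA-A and 50 with BLU-A. It was the highest gene in BLA at 1.64 (0.5 to 2.78) and in BLU-A at 1.65 (0.51 to 2.79), at 1.88 CPM in BLA and 1.89 CPM in BLU-A, while its partner Cox4i1 was at 115 CPM or more. At 0.263 CPM in untreated cells and 0.909 CPM with BLU, Cox4i2 passed the filter only through libraries where it was high. Its rank as the highest gene follows in part from that filter. Cox7a1, the heart and muscle isoform, had 28, 4, 13, 7 and 45 counts, and its -1.26 in BLA carried an interval of -2.77 to 0.25. The partner Cox7a2 was at 25.8, 17.2, 24, 43.6 and 25.9 CPM. Ndufa4l2, an isoform of Ndufa4 that responds to low oxygen, had 30, 15, 24, 4 and 44 counts, so it was low in BLA-A, where Ndufa4 was high.

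The remaining isoforms did not pass the filter. Cox6b2, an isoform of testis, had 21 counts in untreated cells and 0 in each treated library, each of which allows up to 3 counts. Cox8b had 3, 0, 11, 2 and 5 counts, Cox7b2 had 5, 0, 0, 2 and 0, and Cox6a2, the muscle partner of Cox6a1, had 5 counts in BLA-A and 0 elsewhere. Cox8c and the gene copies Ndufb11b, Ndufb4b and Ndufb4c were at 0 in all 5 libraries. These 8 are the genes of the rule that carry no fold change here.

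ATP synthase had 18 genes, all past the filter, with medians of -0.6, -0.38, 0.19 and -0.08. The 5 subunits of F1, the catalytic head, were below 0 in BLA and BLU and above 0 in BLA-A without exception, by small amounts: -0.66 to -0.32 in BLA and 0.05 to 0.54 in BLA-A. Atp5f1b, the catalytic beta subunit, was at 553 CPM in untreated cells, 351 with BLA, 428 with BLU, 572 with BLA-A and 458 with BLU-A. The stalk, which holds the head still, and the membrane part were split. Atp5po, the stalk subunit at the top of F1, was at 210, 122, 150, 72.6 and 199 CPM, or -1.53 (-1.61 to -1.45) in BLA-A, and Atp5pd was at 77.1, 43.1, 57.5, 35.6 and 72.9 CPM, or -1.11. Their neighbour in the stalk, Atp5pb, was at 79.9, 62.4, 65.9, 125 and 75.2 CPM, or 0.64 in BLA-A.

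Atp5mj, a small membrane subunit, was the lowest of the 91 genes in BLA-A, at 88 CPM in untreated cells, 56.7 with BLA, 62.6 with BLU, 28 with BLA-A and 93.2 with BLU-A, a log2 fold change of -1.63 (-1.76 to -1.51). Atp5if1, which blocks the enzyme when it runs backwards, was at 158, 103, 115, 102 and 142 CPM and so was below untreated cells in all 4 treatments. The membrane subunit Atp5me was among those high in BLA-A, at 12.9, 6.8, 7.38, 23.3 and 10.1 CPM, or 0.83, and has 1 near-identical copy elsewhere.

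The c-ring genes, whose promoters are printed above, showed how members with the same product parted. Atp5mc3, at 73738779 to 73741933 on chromosome 2 (GRCm39), was at 23.6 CPM in untreated cells, 9.93 with BLA, 18.9 with BLU, 130 with BLA-A and 17.1 with BLU-A. Its log2 fold change was -1.21 (-1.41 to -1) in BLA and 2.44 (2.32 to 2.57) in BLA-A, the highest of the 91 genes. Atp5mc2, at 102571295 to 102580787 on chromosome 15, was at 9.51, 9.63, 8.32, 4.36 and 8.31 CPM, so it was level in 4 libraries and at -1.04 (-1.37 to -0.71) in BLA-A. Atp5mc1, at 95959678 to 95966757 on chromosome 11, was above untreated cells in all 4 treatments, at 27, 50, 71, 122 and 69 counts, with 1.02 (0.38 to 1.66) in BLU, the only gene above 1 there, 1.04 (0.39 to 1.68) in BLU-A and 1.93 (1.33 to 2.53) in BLA-A. Atp5mc2 has 2 near-identical copies elsewhere in the genome and Atp5mc1 has 1, and reads that align to several places were not counted, so the levels of these genes are uncertain. The 3 genes also each overlap an annotated gene on the other strand.

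Nanoparticles and extracts of the same fruit were compared next. BLA-A against BLA gave the largest contrast, with a median of 0.7 over the 91 genes against -0.08 over all genes. There were 35 genes above 1 (38.5%, against 11.6% of all genes) and 4 below -1 (4.4%, against 13% of all genes). The 4 were Ndufs4 (-1.23), Ndufc1 (-1.11), Atp5mc2 (-1.06) and Atp5mj (-1). Uqcr11 (3.67), Atp5mc3 (3.65), Ndufa4 (3.48), Uqcrh (2.46) and Cox6a1 (2.4) were the highest. BLU-A against BLU had a median of 0.24, with 73 of 91 genes above 0, against -0.02 and 8412 of 17647 over all genes. At 0.5, 18 genes (19.8%) were above and 0 below, against 1880 and 2134 of all genes. Only Cox7a1 was above 1, at 1.18 (0.29 to 2.07) on 13 counts in BLU and 45 in BLU-A. None was below -1. Of all genes, 2.88% were above 1 and 3.9% below -1.

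**Figure D3:**
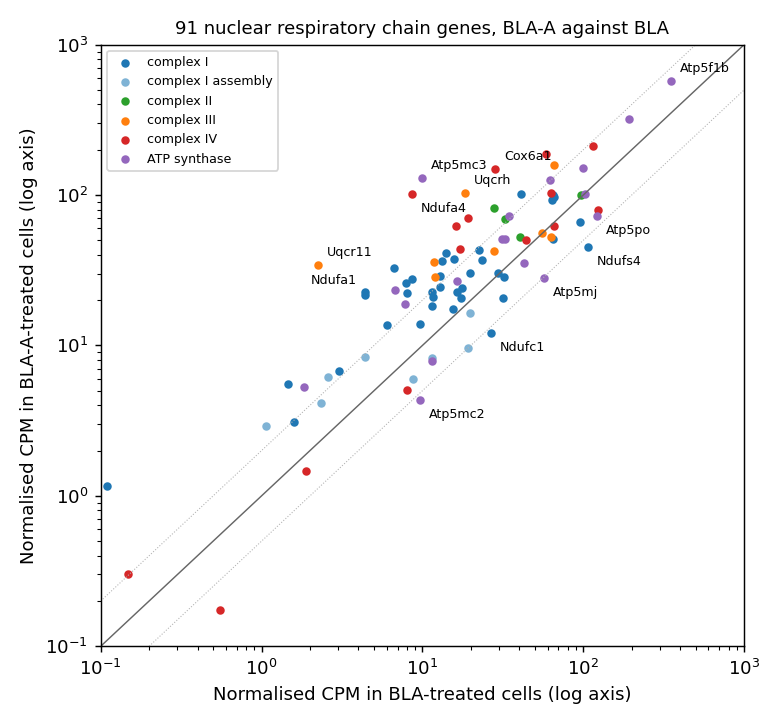
Normalised CPM of the 91 genes in BLA-A-treated cells against BLA-treated cells, both on log axes, coloured by complex, with a solid line where the 2 are equal and dotted lines at a log2 ratio of 1 and -1. Most points lie above the solid line; Uqcr11, Atp5mc3 and Ndufa4 lie farthest above it (log2 fold changes of 3.67, 3.65 and 3.48) and Ndufs4, Ndufc1 and Atp5mc2 are below the lower dotted line.

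With the filter at 1 CPM, the edgeR tests that treat libraries as the samples called none of these genes. In the edgeR quasi-likelihood test of the 2 nanoparticle libraries against the 2 extract libraries, with Benjamini-Hochberg adjustment over 17647 genes, 0% of all genes were called at an adjusted p of 0.05. At an unadjusted p under 0.05 there were 22 respiratory chain genes, all higher with nanoparticles, and 1082 genes in all. The lowest p values were those of Cox6a1 (log2 fold change 1.68, SE 0.42, adjusted p = 0.692 by edgeR), Ndufa11 (1.63, SE 0.44), Uqcr11 (2.61, SE 0.71), Ndufa4 (2.3, SE 0.68) and Cox5a (1.19, SE 0.37). DESeq2 called 3 of the chain's genes and 34 genes in all. Without the filter at 1 CPM, edgeR called 13 of the chain's 95 genes and 581 of 29781 genes in all (1.95%).

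For the 4 treated libraries against the untreated library, edgeR called 0 respiratory chain genes and 0.0227% of all genes (4 genes), with no respiratory chain gene at an unadjusted p under 0.05, against 481 of all genes. DESeq2 called 0 of the chain's genes and 17 in all. The gene nearest the limit was Cox4i2, at 2.52 with an SE of 1.1 (adjusted p = 0.999 by edgeR), which passed the filter only through treated libraries. Without the BLA-A library, 9 of the chain's 90 genes had an unadjusted p under 0.05, as did 1845 of 17500 genes in all, none was called (45 of all genes, 0.257%) and the lowest adjusted p was 0.255 by edgeR. For the 2 blackberry libraries against the 2 blueberry libraries, edgeR called 0 of the chain's genes and 0% of all genes (without the filter, 4 of 95 and 279 of 29781, 0.937%), and DESeq2 called 0 and 13. The 4 genes at an unadjusted p under 0.05, of 641 in all, were Ndufb1 (-0.82), Atp5pd (-0.73) and Atp5po (-0.84), lower with blackberry, and Ndufs6 (1.92), higher with blackberry.

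The genes of the chain have short transcripts, with a median canonical transcript of 1101 nucleotides against 3760 in the other protein-coding genes at 10 CPM or more, and in the extract-treated libraries short transcripts were lower in general. Genes at a mean of 10 CPM or more were sorted by length. In BLA, other genes with transcripts of up to 750 nucleotides had a median log2 fold change of -0.62 (99 genes) and the respiratory chain genes of that length -0.71 (22 genes). Over 1500 and up to 2500 nucleotides the medians were -0.19 (1538 genes) and -0.48 (17 genes), and above 4000 nucleotides they were 0.09 (4067 genes) and -0.31 (4 genes). The difference from other genes of like length was taken over all 91 genes of the chain, those under 10 CPM included. Its median was -0.2 in BLA, where the plain median was -0.57, and -0.13 in BLU, where the plain median was -0.37. In BLA-A the shortest class was at 0.04 in other genes and 0.32 in the chain. In BLA-A it was GC content that moved with the fold change across genes: other genes at 56.3% to 74.4% GC had a median of 0.46, and the chain's 12 genes in that range had 0.4. The difference from genes of like GC content, again over all 91 genes of the chain, had a median of 0.05 in BLA-A. Across genes, which share their libraries, Spearman's rho of the fold change with transcript length was 0.314 in BLA over the 8936 protein-coding genes at 10 CPM or more, those of the chain included, and 0.173 over the 91, and with GC content it was 0.294 and 0.135 in BLA-A. The part of length and GC content in the differences was not tested further.

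**Figure D4:**
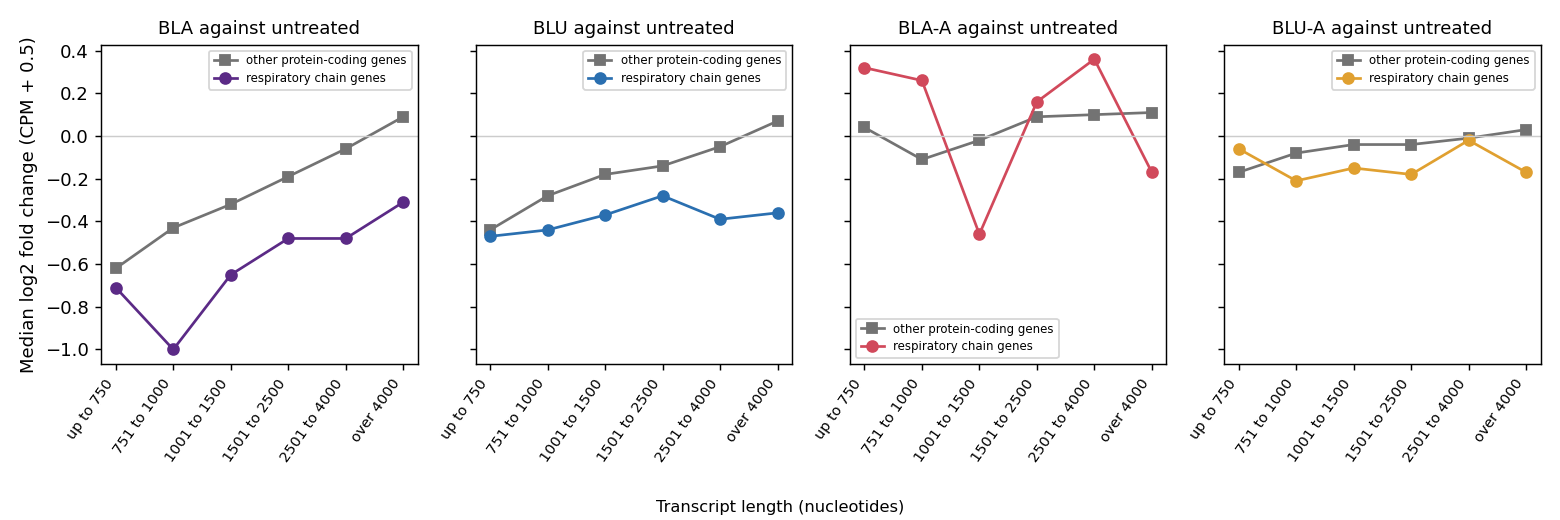
Median log2 fold change against untreated cells by length of the canonical transcript, for other protein-coding genes (grey squares, 99 to 4067 genes per class) and for the nuclear respiratory chain genes (coloured circles, 4 to 22 genes per class), 1 panel per treatment. In BLA and BLU the grey line climbs from -0.62 and -0.44 in the shortest class to 0.09 and 0.07 in the longest and the coloured line lies below it throughout; in BLA-A the coloured line crosses the grey one.

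The 16 genes above 1 in BLA-A had a median level in untreated cells of 10.1 CPM, a median transcript of 850 nucleotides and a median GC content of 52.2%. The 9 below -1 had 77.1 CPM, 1255 nucleotides and 50.4%, and the other 66 had 29.5 CPM, 1090 nucleotides and 51%. A near-identical copy elsewhere was found for 4 of the 16, 2 of the 9 and 4 of the 66. These groups were formed from the fold changes themselves and are given as a description. Of the 99 genes, 71 overlap another annotated gene, 65 of them one on the other strand, and 12 have a near-identical copy elsewhere, which limits how far their counts can be assigned.

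Other lists of mitochondrial and ribosomal genes gave a setting for these values. The protein genes of mitochondrial DNA, whose products join the nuclear subunits in complexes I, III and IV and in ATP synthase, were also mostly lower in BLA and higher in BLA-A. Of the 13, 7 passed the filter, with medians of -0.83 with BLA, -0.35 with BLU, 1 with BLA-A and -0.03 with BLU-A. ND1 had 24632 counts in untreated cells, 13884 with BLA, 17950 with BLU, 138068 with BLA-A and 21340 with BLU-A, and COX1 had 156313, 110407, 129392, 329386 and 164398. ND5, whose signed change averaged over the treatments was the farthest from 0 in this list (-0.36; opposite changes, as in ND1, cancel in such a mean), was at 3590, 2030, 2690, 3150 and 3580 CPM and so was not higher in BLA-A. ND3, ND4L, COX3, ATP6 and ATP8 were at 0 counts in all 5 libraries and COX2 had 1 count in BLA-A, so these genes carry no value.

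The proteins of the mitochondrial ribosome, 77 genes past the filter, had medians of -0.4, -0.28, -0.05 and -0.05 for BLA, BLU, BLA-A and then BLU-A. Of these 77, 3, 1, 7 and 0 genes were below -1, where 8.55%, 4.64%, 12.4% and 4.51% of all genes were. The 84 cytosolic ribosomal protein genes had -0.38, -0.32, -0.23 and -0.13, so lower medians in BLA and BLU were also found outside the mitochondrion. In BLA-A the cytosolic list spread as the chain did, with 12 of its 84 genes above 1 and 17 below -1, against 8.54% and 12.4% of all genes. The farthest was Rps23 at 40.2 CPM in untreated cells, 14.7 with BLA, 20 with BLU, 2.16 with BLA-A and 33.6 with BLU-A. The 17 genes of the citric acid cycle, which feeds the chain with NADH and succinate, had medians of -0.51, -0.25, -0.33 and -0.17, and Idh3a, a subunit of its NAD-dependent isocitrate dehydrogenase, was at 159, 91, 108, 74.3 and 135 CPM.

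The 44 assembly factors outside the naming rule had medians of -0.22, -0.15, -0.06 and 0.01. Of these 44, 1 was above 1 and 3 were below -1 in BLA, where 7.93% and 8.55% of all genes were. Sdhaf1, an assembly factor of complex II, was at 0.15, 0, 0.545, 2.98 and 0.831 CPM. It passed the filter only through the BLA-A library, where it was high. The 18 electron carriers and other complex III genes had -0.26, -0.15, -0.13 and -0.13. Cyc1, the cytochrome c1 of complex III, had 1350 counts in untreated cells, 657 with BLA, 925 with BLU, 1050 with BLA-A and 1137 with BLU-A. Cycs, the somatic cytochrome c, had 7, 35, 16, 51 and 19 counts. At 0.263 CPM in untreated cells, it passed the filter only through BLA (1.29 CPM) and BLA-A (2.2 CPM), where it was high. Reads that align to several places were not counted and copies of Cycs elsewhere were not looked for, so its level is uncertain. The 20 regulators of respiratory genes and mitochondrial DNA had medians of -0.04, 0, 0.05 and -0.07. Ppargc1a, a coactivator known for raising respiratory gene expression, had 157, 54, 99, 24 and 116 counts, below untreated cells in all 4 treatments, while Esrra, a nuclear receptor that works with it, had 299, 305, 303, 618 and 321 counts.

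**Figure D5:**
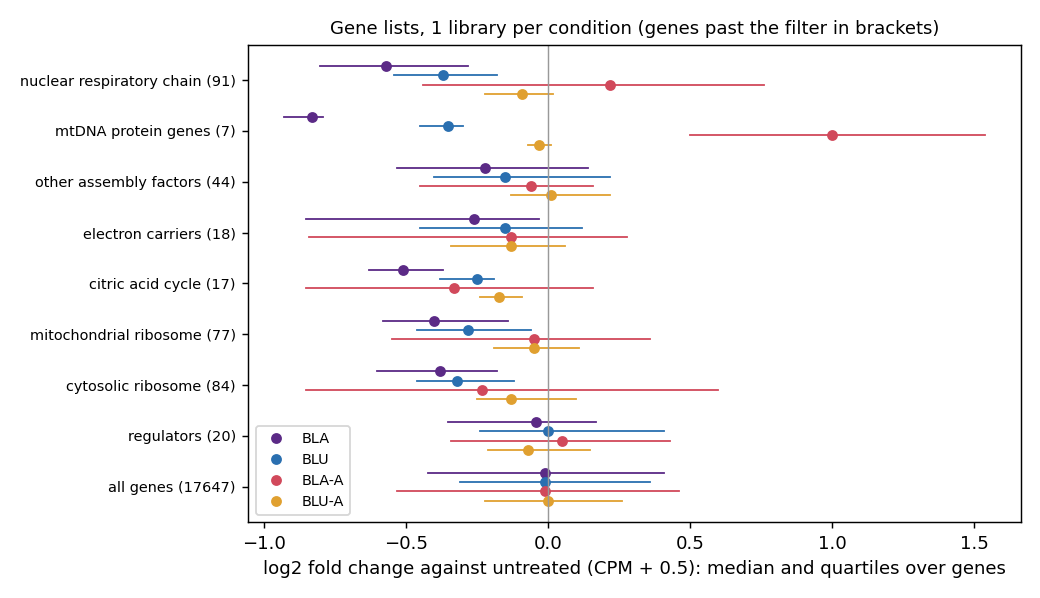
Median (point) and quartiles (line) of the log2 fold change against untreated cells over the genes of each list, 1 colour per treatment, with the number of genes past the filter in brackets. The nuclear respiratory chain (-0.57 in BLA, 0.22 in BLA-A) and the protein genes of mitochondrial DNA (-0.83 and 1) are the lists whose BLA median lies farthest below 0 and whose BLA-A median lies farthest above it, and all genes are centred on 0.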

How the data were processed

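The values are raw read counts for each gene, as the authors deposited them: reads stripped of ribosomal RNA were aligned to GRCm39 by STAR, and OmicsBox counted them by strand on features of type gene, introns included, dropping reads with several alignments. Whether the library kit keeps strand is not given in the sources used here, so counts of genes that overlap on opposite strands are uncertain. The submitters' notes name DESeq2 1.36.0. Deposited tables of the authors' fold changes with p-values and of enrichment scores were not used. No column was left unused.

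The 3 columns of each condition had a chi-square per degree of freedom of 0.0951 to 0.475 (limit 1.5) and were averaged as 1 library, although the labels number them as replicates and the study speaks of biological replicates. Counts were scaled by TMM (edgeR 4.0.16, R 4.3.3), and 0.5 CPM was added before the log. A difference was counted past a log2 fold change of 1 or 0.5. The quasi-likelihood test of edgeR, tested on simulated data, used all genes past the filter and the Benjamini-Hochberg limit was 0.05; the Wald test of DESeq2 1.42.0 was tried beside it. The spread it measures is that between treatments, not between cultures. Other alternatives changed the scaling, the filter, the added CPM and the columns used.

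Gene positions and lengths came from GENCODE on GRCm39, promoters from RefSeq on GRCm38.p6 (matched by symbol or synonym on the same chromosome and strand). Near-identical copies had at least 95% identity over 50% of the transcript. Named genes were those past 1 in any comparison, the 3 highest and lowest per treatment, the 5 highest per kilobase, complex II, catalytic subunits, isoform pairs and, per other list, the gene with the largest mean change; the rest named (Ndufs3, Uqcrc1, Atp5pb, Atp5me, Atp5if1, ND1, COX1, Cyc1, Nrf1 and Esrra among them) were added once values had been seen. The members and lists were chosen with earlier results of these data known, and S6 kinases and Rps19bp1 were dropped from the cytosolic ribosomal list after seeing the data.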

Additional observations from a re-analysis of the deposited data

Results flagged for a closer look

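Atp5mj, a small membrane subunit of ATP synthase, differed between nanoparticle and extract in opposite directions in the 2 fruits: its log2 fold change was -1 for BLA-A against BLA (56.7 and 28 CPM in BLA and BLA-A) and 0.57 for BLU-A against BLU (62.6 and 93.2 CPM in BLU and BLU-A). Ndufa4l2, an isoform of a complex IV subunit, had values of opposite sign on few counts, with -0.64 for BLA-A against BLA (15 and 4 counts in BLA and BLA-A, 95% counting interval -2.24 to 0.95) and 0.66 for BLU-A against BLU (24 and 44 counts in BLU and BLU-A, interval -0.06 to 1.37). Both intervals of Ndufa4l2 include 0. The differences between the fruits were not tested, since each condition has 1 library.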

How the results depend on the processing

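No median changed sign. Counts past 1 were taken over both directions together. With 1 library per condition these are values with no replicate check, and counting error limits the genes with few counts most. With scaling by DESeq2 size factors, the median log2 fold change of the 91 genes was -0.42 in BLU (from -0.37) and 0.78 for BLA-A against BLA (from 0.7), and 0 genes passed 1 in BLU (from 1). Scaling by total counts alone gave 0.03 in BLA-A (from 0.22) and 0.55 for BLA-A against BLA (from 0.7). The medians of all genes were then -0.18 (from -0.01) and -0.22 (from -0.08). With no filter other than 1 count in any library (29781 genes), the medians were 0.3 in BLA-A and 0.78 for BLA-A against BLA, 2 genes passed 1 in BLU, and edgeR called 13 genes for nanoparticle against extract (1.95% of all genes) and 4 for blackberry against blueberry (0.937% of all genes), where it called 0 in each with the filter; all 13 and all 4 were higher. With at least 10 counts in every library, BLA-A against BLA was at 0.66, and 1 gene passed 1 in BLU-A (from 2) and 0 in BLU-A against BLU (from 1). With 2 CPM added, the medians were -0.33 in BLU and 0.65 for BLA-A against BLA, and 0 genes passed 1 in BLU, BLU-A and BLU-A against BLU. Taken as the difference from genes of like transcript length, the medians were -0.2 in BLA, -0.13 in BLU and 0.5 for BLA-A against BLA, and from genes of like GC content -0.33 in BLU and 0.05 in BLA-A; these were chosen after seeing the data. DESeq2 called 3 genes for nanoparticle against extract. Leaving out 1 column of each condition gave 0 to 1 genes past 1 in BLU (0 without replicate 2) and 1 to 2 in BLU-A (1 without replicate 3). The causes of these shifts were not tested.

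The replicate numbers do not pair the columns: deviations from the condition means correlated at -0.000902 on average over 30 pairs, from -0.0246 to 0.0172. When the 15 columns were counted as separate samples, edgeR called 8 of the 91 genes for treated against untreated (6 lower and 2 higher), 57 for nanoparticle against extract and 31 for blackberry against blueberry, where it called 20.1%, 44.1% and 31.9% of all genes. With a replicate block it called 3 (1 lower and 2 higher), 53 and 22, against 14.2%, 33.8% and 22.1% of all genes.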
